A study of Mus musculus with 6 samples.

Results

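The 36 macrophage and myeloid marker genes described here were taken by symbol from a table of 21448 genes measured by RNA-seq in mouse lymphoma B cells, and all 36 were found in it. The cells were Eµ-Myc lymphoma cells: an immunoglobulin heavy chain enhancer drives a Myc transgene that causes B cell lymphoma, and both groups carry it. A group of 3 libraries is labelled wild type and a group of 3 PRDM15 knockout. Per the labels' protocols the lymphoma cells were kept in culture with IL7, received 4-hydroxytamoxifen (OHT, 50 nM) to delete PRDM15 or ethanol as control for 24 hours, and were collected 3 days later. The titles give the group and a replicate number but not the agent, so OHT for the knockout libraries and ethanol for the wild type libraries is inferred from the protocol. The sources used here do not give the recombinase that OHT activates, the age of the mice or whether each replicate is a separate mouse. The design text calls the replicates biological. The p-values set group differences against the spread between these libraries. In fits with the replicate number, that is the spread left after the number is taken out.

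Macrophages take up dying cells, microbes and lipoproteins and digest them in lysosomes. Their identity rests on the transcription factor PU.1, encoded by Spi1, together with C/EBP factors, and their survival on signalling through the CSF1 receptor. In the Eµ-Myc lymphoma, macrophages are known to clear dying tumour cells. B lineage cells share part of this programme: PU.1 and the common cytokine receptor beta chain are made in both lineages, whereas C1q, Csf1r, Mertk and Adgre1 are used to mark macrophages.

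Levels are given as counts per effective library size in units of 1e6 reads, written CPM and not divided by gene length. Libraries held 28852951 to 47255421 reads assigned to genes. Prdm15, the gene to be deleted, measured 29.2, 47.3 and 41.3 CPM in the wild type and 40.2, 40.9 and 39.2 CPM in the knockout libraries (limma adjusted p = 0.9998, paired 0.834). A sum over the gene does not show a deleted exon, so the group directions rest on the labels. The B cell label was met in all 6 libraries, with Cd79b, a B cell receptor chain, between 389 and 519 CPM.

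Nearly all of these genes peaked in knockout replicates 2 and 3, and the other 4 libraries were low. Summed over the 36 genes, the level was 363.7, 600.4 and 530.9 CPM in wild type replicates 1, 2 and 3 and 243.2, 5001 and 2940.4 CPM in knockout replicates 1, 2 and 3. In knockout replicates 2 and 3 Lyz2 and Gpnmb made up the largest part of the sum. In wild type replicate 1 and knockout replicate 1 the highest member was Csf2rb. Without Lyz2 and Gpnmb the sum was 277, 334 and 383 CPM against 210, 1862 and 1379 CPM. Of the 34 markers with a mean of at least 1 CPM, which were the ones tested, 32 had their 2 highest values in knockout replicates 2 and 3 (10.0% of all 10533 tested genes did). Spi1 and Csf2rb were the exceptions. In bulk RNA, more cells of a type and more RNA per cell cannot be told apart.

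**Figure D1:**
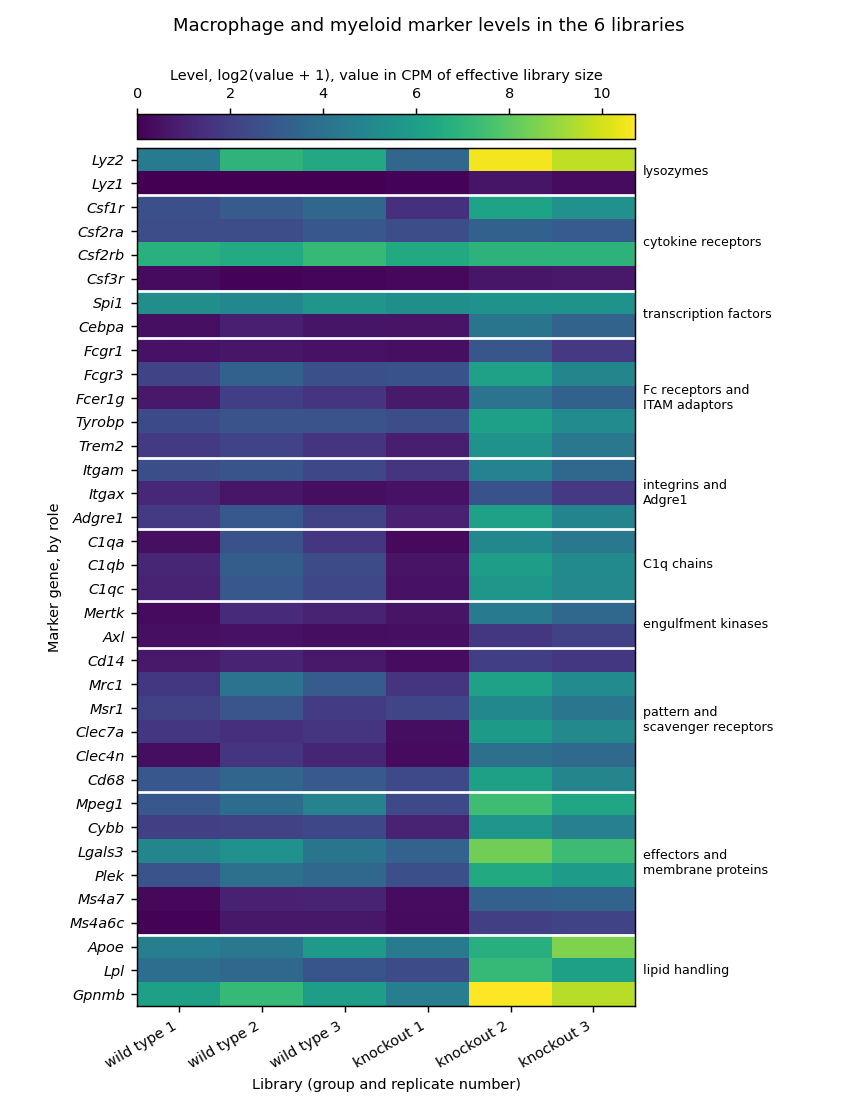
Level of each of the 36 markers, as log2(value + 1) with values in CPM of effective library size (colour), in the 6 libraries (columns), with genes ordered by role (rows). Most rows are bright in knockout replicates 2 and 3 alone, while Spi1 and Csf2rb have a like colour in all 6 columns and Lyz1 and Csf3r stay dark.

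Lysozymes break bacterial cell walls. Lyz2, the form of macrophages and granulocytes, was at 20.4 CPM in wild type replicate 1, 124 in replicate 2 and 86.0 in replicate 3, and at 10.7, 1471 and 820.3 CPM in the knockout libraries of the same numbers. Knockout replicates 2 and 3 lay above every wild type library and knockout replicate 1 below every one. The wild type libraries differed among themselves too, replicate 2 being 6.12 times as high as replicate 1 (95% interval 5.67 to 6.61, exact binomial, counting error only). Lyz1, the intestinal paralog, had 0, 1 and 0 reads in the wild type libraries and 2, 20 and 10 in the knockout libraries and was not tested. Of the 50-base words of Lyz1 transcripts, 16.1% also occur in Lyz2 transcripts, so reads listed under Lyz1 may come from Lyz2.

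Among the transcription factors, Spi1 and Cebpa showed different profiles. Spi1, which encodes PU.1, was at 37.8, 30.8 and 46.9 CPM in wild type and 38.7, 42.5 and 44.7 CPM in knockout, with groups that overlapped and a log2 difference of 0.14 (SE 0.17). Cebpa, which encodes the C/EBP alpha of granulocyte and macrophage precursors, was at 0.347, 0.927 and 0.535 CPM in wild type and at 0.466, 17.1 and 9.56 CPM in knockout. Knockout replicate 1 lay within the wild type range of Cebpa. Cebpa was thus 18.5 times as high in knockout replicate 2 as in wild type replicate 2 (95% interval 13.3 to 26.4) and 17.9 times in number 3 (11.9 to 27.9). Spi1 was 1.38 times (1.28 to 1.48) and 0.954 times (0.897 to 1.02) in the same pairs.

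PU.1 binds a purine-rich core, GAGGAA, and the promoters of 5 members that hold it close to the start site are shown. These members were high in the same libraries, as most members were, and Spi1 itself was level. Binding of PU.1 and its part in the marker levels were not tested. Promoter sequences from RefSeq (GRCm38.p6, another build than the mm9 of the files) were found for 26 of the 36 members, some with several starts. Fcgr3 has 2 listed starts, of which the one further downstream is shown. Each line gives the 120 bases before the annotated start, 5′ to 3′ on the strand of the gene, with GAGGAA or its reverse complement TTCCTC in capitals.
C1qb (chr4:136886201-136886320, minus strand): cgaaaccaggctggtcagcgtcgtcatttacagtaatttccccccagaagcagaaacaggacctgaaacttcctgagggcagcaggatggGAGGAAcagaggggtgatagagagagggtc
Fcgr1 (chr3:96293970-96294089, minus strand): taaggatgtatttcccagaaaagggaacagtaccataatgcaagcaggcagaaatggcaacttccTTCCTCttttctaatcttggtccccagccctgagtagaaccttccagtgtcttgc
Fcgr3 (chr1:171059395-171059514, minus strand): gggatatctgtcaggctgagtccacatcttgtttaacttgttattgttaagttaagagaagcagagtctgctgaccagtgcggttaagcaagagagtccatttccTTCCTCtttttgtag
Plek (chr11:17008719-17008838, minus strand): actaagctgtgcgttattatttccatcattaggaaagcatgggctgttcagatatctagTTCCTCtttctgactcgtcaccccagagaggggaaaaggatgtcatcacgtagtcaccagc
Trem2 (chr17:48346281-48346400, plus strand): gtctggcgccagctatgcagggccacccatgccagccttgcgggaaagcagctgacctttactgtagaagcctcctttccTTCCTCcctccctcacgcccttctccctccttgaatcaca

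The first base of the marked core lay 30 bases before the shown start in C1qb, 55 in Fcgr1, 15 in Fcgr3, 61 in Plek and 40 in Trem2. Within the 250 bases before a start, GAGGAA was found on either strand in 14 of the 26 members, or 53.8%, and in 25.9% of the 27025 genes with a promoter sequence, counting a gene where any of its starts had it. The longer GAGGAAGT was found in 1 member, C1qc (2.79% of genes), TTNCNNAA, a loose C/EBP pattern, in 13 (50.0% against 40.3%) and TGANTCA, an AP-1 pattern, in 5 (19.2% against 7.82%). TCACGTGA was found in 0 members (0.907% of genes). GAGGAA is part of GAGGAAGT, so these counts overlap. Csf2ra, at 1.87 times its wild type partner in number 2 and 1.15 times in number 3, also held GAGGAA, and Lyz2, Gpnmb, Mertk and Cebpa did not. In Csf2ra the core lay 14 and 8 bases before the start, nearer than in any promoter shown. Itgam and Mrc1, not shown either, had their nearest copy at 15 and 35 bases.

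Cytokine receptors split by chain. Csf1r, the receptor for CSF1 and IL34, was at 5.21, 7.39 and 10.6 CPM in wild type and 1.80, 72.3 and 42.2 CPM in knockout. Its ratio of knockout to wild type was 0.345 (95% interval 0.25 to 0.468) in number 1, 9.78 (8.67 to 11.1) in number 2 and 3.99 (3.61 to 4.42) in number 3. Csf1r was therefore below its wild type partner in the first pair and above it in the others.

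Of the GM-CSF receptor chains, Csf2ra was highest in the same libraries as Csf1r but by less, and Csf2rb did not follow. The ratio of Csf2ra to its wild type partner was 1.87 (95% interval 1.56 to 2.24) in number 2. In number 3 it was 1.15 (0.978 to 1.35), an interval that held 1. Csf2ra, the alpha chain, lay between 4.70 and 6.59 CPM in wild type and at 4.96, 8.91 and 7.56 CPM in knockout. Csf2rb, the beta chain shared by the GM-CSF, IL3 and IL5 receptors, was at 109, 92.9 and 144 CPM in wild type and 90.6, 121 and 121 CPM in knockout, with a log2 difference of -0.04 (SE 0.20). Of the 50-base words of Csf2rb, 12.3% occur in other genes, above all its neighbour Csf2rb2, so its single values are uncertain. Csf3r, the G-CSF receptor of neutrophils, had 9, 3 and 5 reads in wild type and 5, 23 and 27 in knockout and was not tested.

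Fc receptors, their signalling adaptors and Trem2 made up a list of 5 genes. Its sum was 11.6, 21.7 and 15.4 CPM in wild type and 12.3, 198.8 and 93.6 CPM in knockout. Fcgr3, a receptor for IgG complexes, was at 3.58, 9.02 and 5.14 CPM and at 5.52, 67.9 and 29.0 CPM. Tyrobp, the ITAM adaptor known as DAP12, was at 4.35, 5.59 and 5.63 CPM and at 4.89, 65.0 and 34.6 CPM. In number 1 the ratio of knockout to wild type was 1.54 for Fcgr3 (95% interval 1.22 to 1.95) and 1.12 for Tyrobp (0.892 to 1.41), the second interval holding 1. Fcgr3 shares 9.58% of its 50-base words with other genes, above all Fcgr2b, which encodes another IgG receptor.

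Fcer1g, the gamma chain that pairs with Fc receptors, went from 0.668, 3.01 and 2.12 CPM in wild type to 0.699, 15.7 and 9.15 CPM in knockout. Fcgr1, the high-affinity IgG receptor, stayed under 1 CPM in 4 libraries and was at 6.22 and 2.44 CPM in knockout replicates 2 and 3. Trem2, a lipid-sensing receptor that signals through Tyrobp, was at 2.54, 3.51 and 2.10 CPM and at 0.865, 44.1 and 18.4 CPM. Trem2 and Tyrobp thus parted in number 1, where Trem2 was at 0.341 times its partner (95% interval 0.212 to 0.531).

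Adgre1, the F4/80 antigen of mouse macrophages, was at 2.56, 6.67 and 3.30 CPM in wild type and 0.965, 68.7 and 27.4 CPM in knockout. The integrin alpha chains Itgam (CD11b) and Itgax (CD11c) reached 25.5 and 5.39 CPM in knockout replicate 2 and 11.3 and 2.47 CPM in replicate 3. In the other 4 libraries Itgam lay between 2.16 and 5.87 CPM and Itgax between 0.321 and 1.34 CPM. Itgam has 66.3% of its 50-base words in common with the overlapping model Gm49368, and Itgax 8.02% with other genes, above all Itgad, so both are uncertain.

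The 3 C1q chains form the recognition molecule of the classical complement pathway. C1qa was at 0.374, 5.51 and 2.20 CPM in wild type and 0.200, 30.5 and 18.8 CPM in knockout. C1qb was at 1.20, 7.95 and 4.41 CPM and at 0.499, 62.9 and 32.5 CPM, and C1qc at 1.12, 6.54 and 3.83 CPM and at 0.432, 49.4 and 31.6 CPM. All 3 chains ordered the 6 libraries alike, from knockout replicate 1 and wild type replicate 1 up to knockout replicate 2. The wild type libraries differed widely, C1qa being 14.7 times as high in replicate 2 as in replicate 1 (95% interval 8.6 to 27.4).

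Engulfment receptors were low except in the same 2 knockout libraries. Mertk, a kinase that binds dying cells through bridging proteins, was at 0.240, 1.43 and 1.05 CPM in wild type and 0.499, 20.7 and 10.8 CPM in knockout. Axl, its relative, was between 0.321 and 0.426 CPM in wild type and at 0.366, 2.33 and 3.34 CPM in knockout. Axl was lower in knockout replicate 2 than in replicate 3 (ratio 0.698, 95% interval 0.531 to 0.913), whereas Mertk was higher (1.91, 1.70 to 2.15).

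Pattern and scavenger receptors, summed over 6 genes, were at 15.3, 37.3 and 21.1 CPM in wild type and 10.7, 238 and 126 CPM in knockout. Clec7a, the beta-glucan receptor Dectin-1, was at 2.27, 1.80 and 2.05 CPM and at 0.333, 55.6 and 31.8 CPM, with the widest span of ratios, from 0.146 (95% interval 0.0678 to 0.283) in number 1 to 30.8 (24.4 to 39.5) in number 2. Mrc1, the mannose receptor CD206, was at 2.38, 16.1 and 7.72 CPM and at 2.10, 68.6 and 34.8 CPM. Mrc1 differed between wild type libraries by more than Clec7a did.

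Cd68, a lysosomal glycoprotein of macrophages, was at 6.41, 10.2 and 6.89 CPM in wild type and 4.09, 65.9 and 28.6 CPM in knockout. Msr1, the class A scavenger receptor, was at 3.26, 5.99 and 2.67 CPM and at 3.66, 30.9 and 17.3 CPM, and Clec4n, Dectin-2, at 0.321, 2.18 and 1.13 CPM and at 0.233, 14.4 and 11.5 CPM. Cd14, the coreceptor for bacterial lipopolysaccharide, stayed at or below 2.99 CPM in every library, and its highest values were again in knockout replicates 2 and 3. Cd14 was the tested member with the smallest log2 difference in number 2 after Csf2rb, Spi1 and Csf2ra (0.98).

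Effector and membrane protein genes summed to 44.6, 73.97 and 60.7 CPM in wild type and 19.99, 647 and 337 CPM in knockout. Lgals3, galectin-3, was at 28.9, 41.8 and 17.0 CPM and at 9.18, 333 and 161 CPM. Mpeg1, a pore-forming protein of phagosomes, was at 6.57, 12.6 and 26.9 CPM and at 4.09, 165 and 79.5 CPM. Mpeg1 was highest of the wild type libraries in replicate 3 and Lgals3 lowest there, so the wild type libraries did not rank the same for every marker.

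Cybb, the catalytic chain of the phagocyte oxidase, lay between 3.10 and 3.94 CPM in wild type and at 1.03, 47.7 and 24.5 CPM in knockout. Plek, pleckstrin, a kinase substrate of platelets and leukocytes, was at 5.74, 14.7 and 11.2 CPM and at 5.19, 88.7 and 59.0 CPM. Ms4a7 and Ms4a6c encode tetraspan membrane proteins of macrophages and monocytes. Ms4a7 was at 8.76 and 9.67 CPM and Ms4a6c at 3.09 and 3.53 CPM in knockout replicates 2 and 3, and in the other libraries both were at or below 1.07 CPM.

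Lipid-handling members summed to 102, 171 and 119.8 CPM in wild type and 47.2, 1917 and 1199 CPM in knockout. Gpnmb, a glycoprotein of lipid-laden macrophages, was at 66.3, 142 and 61.7 CPM in wild type and 22.9, 1668 and 740.6 CPM in knockout. Lpl, lipoprotein lipase, was at 13.4, 10.9 and 5.93 CPM and at 4.62, 145 and 66.5 CPM. Apoe, the lipoprotein component, was at 22.6, 18.6 and 52.1 CPM and at 19.7, 104 and 391 CPM. Gpnmb, Lpl and Lgals3 were each lower in knockout than in wild type replicate 1, with ratios of 0.345 (95% interval 0.317 to 0.376), 0.345 (0.284 to 0.417) and 0.317 (0.277 to 0.363), while Apoe was at 0.873 (0.785 to 0.971).

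For most members the knockout libraries spread widely around their mean. Lyz2 was at 77.0 ± 52.7 CPM in wild type and 767 ± 732 CPM in knockout, and Gpnmb at 89.9 ± 44.8 and 811 ± 825 CPM (SD, n = 3 libraries). Csf1r was at 7.72 ± 2.70 and 38.8 ± 35.4 CPM and C1qb at 4.52 ± 3.37 and 32.0 ± 31.2 CPM. In 0 of the 34 tested members did the groups separate, with knockout higher or lower throughout (3.21% and 6.29% of tested genes did).

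On the log2(CPM + 1) scale, the 34 tested members had a median difference of 1.57, knockout minus wild type, against -0.03 over all tested genes. In limma without the replicate number 0 members passed, with an adjusted p of 0.9998 for each and 0 at an unadjusted p under 0.05 (0.00949% and 4.06% of all genes). Libraries of equal number deviated together in these same data and were taken as pairs, which the labels do not state. With the number in the limma fit 0 members passed again. Fcgr3 had the lowest adjusted p (0.135), and 14 members had an unadjusted p under 0.05, all higher. Of all genes 0.133% were called higher in that fit and 7.41% were higher at an unadjusted p under 0.05. edgeR's quasi-likelihood test called 0 members in both designs, with 13 and 17 higher at an unadjusted p under 0.05. Of all genes 0% and 0.0475% were called higher, and 2.95% and 9.53% were higher at an unadjusted p under 0.05. DESeq2 called 2, Tyrobp and Cebpa, without the number (0.294% of all genes called higher) and 8 with it (3.02%), namely Fcgr3, Fcer1g, Cebpa, Mertk, Msr1, Clec4n, Ms4a7 and Ms4a6c. Of these, Cebpa, Mertk, Ms4a7 and Ms4a6c had wild type means under 1 CPM and passed the filter on low values through the knockout libraries. Their calls, and the counts at an unadjusted p that include such members, support no group difference.

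The count of calls turned on the libraries of number 1. Within number 1, 10 of the 34 members were higher in knockout (40.3% of all genes) and 24 lower, the median log2 difference being -0.23 against -0.05 over all tested genes. A difference of at least 1 downward was seen in 6 members, Lgals3 (-1.56), Gpnmb (-1.495), Lpl (-1.36), Clec7a (-1.30), Csf1r (-1.15) and Cybb (-1.01), and in 1.38% of all genes. Fcgr3 had the largest upward difference there (0.51).

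Within numbers 2 and 3 the direction was up. In number 2 all 34 tested members were higher in knockout (49.7% of all genes), 30 of them by at least 1 on the log2 scale (4.58% of all genes), with a median of 2.55. In number 3, 32 were higher (39.0% of all genes) and 31 by at least 1 (2.65% of all genes), with a median of 2.34, Csf2rb (-0.25) and Spi1 (-0.07) being lower. Members that passed the filter on low values partly through these libraries had to be high there, so these shares describe the libraries and support no group difference.

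**Figure D2:**
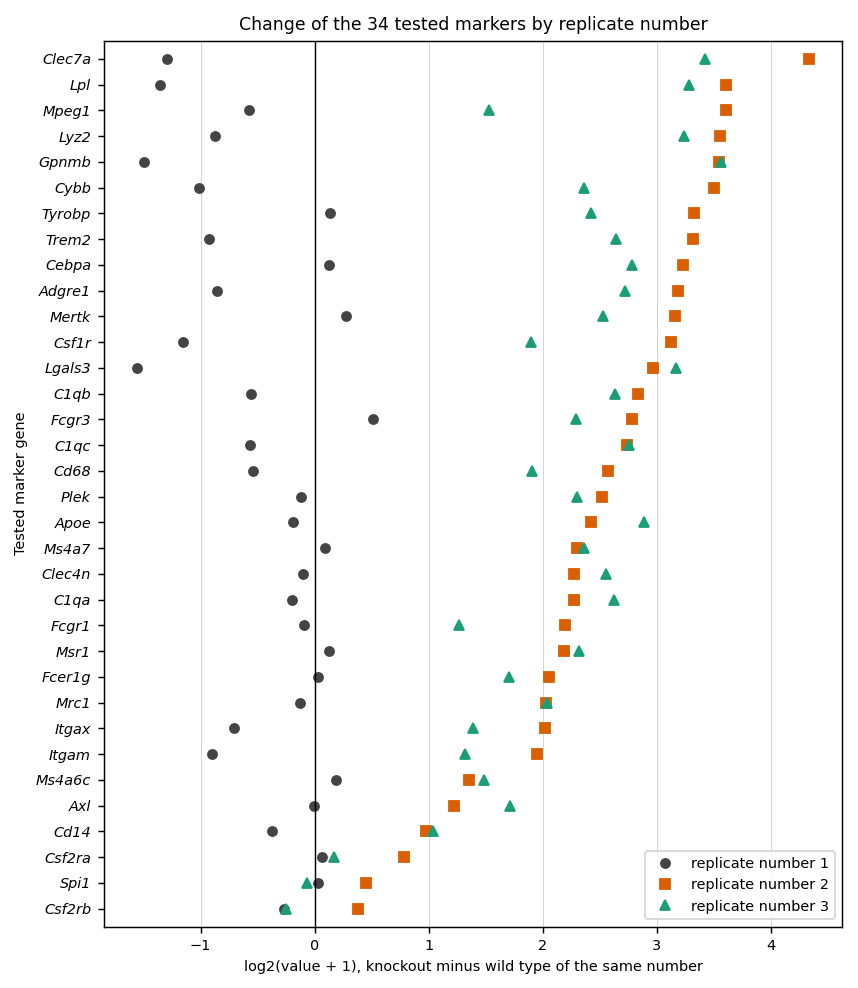
Difference of log2(value + 1), knockout minus wild type of the same replicate number (horizontal axis), for the 34 tested markers (vertical axis), 1 symbol per number and no error bar, since each point is 1 library against 1 library. Circles of number 1 lie between -1.56 and 0.51, squares of number 2 between 0.38 and 4.33 and triangles of number 3 between -0.25 and 3.56.

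Without both libraries of number 1, limma with the replicate number called 31 of the 34 members as higher (4.61% of all genes), all but Spi1, Csf2ra and Csf2rb, on 4 libraries. Of these members Axl, Ms4a6c, Fcgr1, Cebpa, Itgax, Ms4a7, Cd14 and Mertk had wild type means under 1 CPM and passed the filter on low values through the knockout libraries. Number 1 is also the number in which most members were lower in knockout, so this count describes the other 4 libraries and supports no group difference. The median difference was then 2.48. Gpnmb had the lowest adjusted p there (5.73e-07), at a log2 difference of 3.56. Without number 2 or without number 3, 0 members passed, and 0 of all tested genes did. Without knockout replicates 2 and 3 together the direction turned, with a median of -0.76 and 0 members past the threshold (5 at an unadjusted p under 0.05, all lower, against 2.32% of all genes). That fit takes its spread from the wild type group, since 1 knockout library has none.

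The ratio between the knockout libraries of numbers 2 and 3 varied among the markers. Over the 34 members the ratio of replicate 2 to replicate 3 had a median of 1.79 and quartiles of 1.32 and 2.15. Lyz2 stood at 1.79 (95% interval 1.77 to 1.82), Tyrobp at 1.88 (1.76 to 2.00), Mertk at 1.91 (1.70 to 2.15), Cybb at 1.95 (1.81 to 2.10) and Gpnmb at 2.25 (2.22 to 2.28). The highest ratios were those of Fcgr1 (2.55) and Adgre1 (2.51). On the log2 scale both replicates exceeded knockout replicate 1 by at least 1 in 31 members each (9.14% of all genes in either comparison). Replicate 2 exceeded replicate 3 by as much in 10 members (2.53%) and lay below it by as much in 1, Apoe (2.98%).

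Apoe had the lowest ratio, 0.266 (95% interval 0.257 to 0.275), being higher in replicate 3. Axl (0.698) was also higher in replicate 3, while the intervals of Ms4a7 (0.905), Ms4a6c (0.874), Spi1 (0.95), Csf2rb (1.003) and Cd14 (1.26) held 1. Apoe showed the same order in the wild type libraries, where replicate 2 was at 0.356 times replicate 3, the lowest ratio of any tested member. Intervals for counting error do not hold the variation between cultures, which these ratios of single libraries cannot show.

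**Figure D3:**
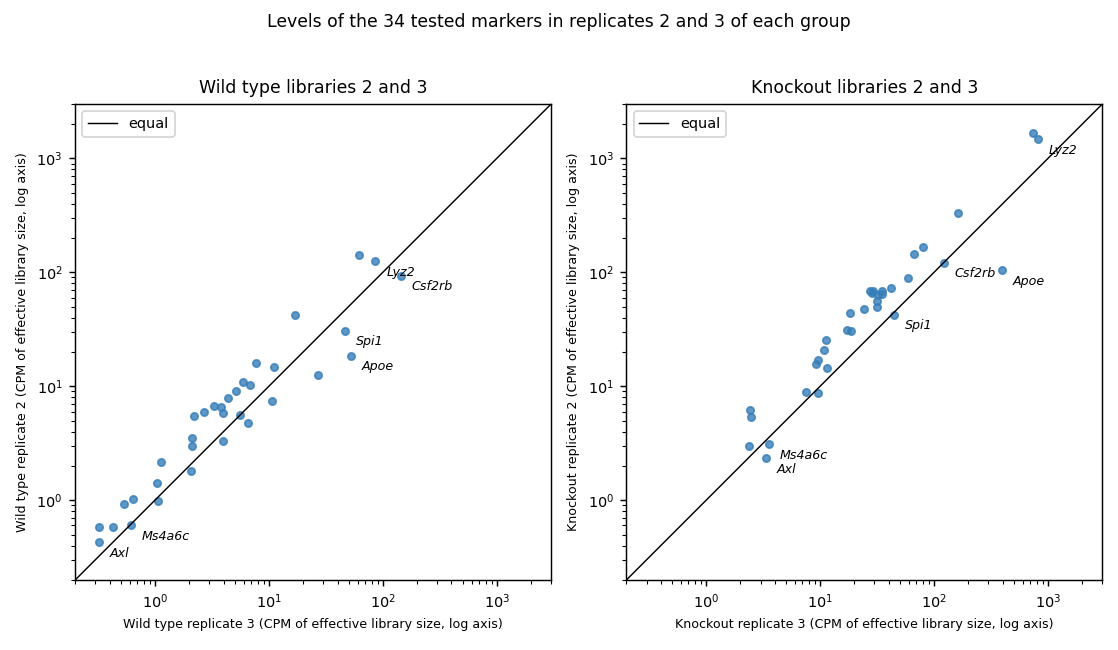
Level of the 34 tested markers in replicate 2 (vertical log axis) against replicate 3 (horizontal log axis) of the wild type group on the left and the knockout group on the right, in CPM of effective library size, with a line where both are equal. In the knockout panel most points lie above the line, at a median ratio of 1.79, while Apoe lies below it in both panels and Csf2rb and Spi1 lie close to it.

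The wild type libraries themselves differed in these markers. Replicate 2 exceeded replicate 1 by at least 1 on the log2 scale in 11 of the 34 members (5.34% of all genes), and replicate 3 exceeded replicate 1 in 7 (6.55%). Lyz2 led both on the log2 scale, with differences of 2.55 and 2.03. C1qa, Clec4n, Mrc1, C1qb and Mertk were 14.7, 6.80, 6.76, 6.61 and 5.94 times as high in replicate 2 as in replicate 1. Gpnmb (2.13 times) and Lgals3 (1.45 times) differed less, and Lpl (0.813) and Itgax (0.432) were lower in replicate 2.

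The libraries of number 1 held most of the lowest values, with a share near that of all genes in the wild type library. Knockout replicate 1 held the lowest of the 6 values in 21 of the 34 members (29.3% of all genes) and wild type replicate 1 in 8 (22.0%). Knockout replicate 2 held the highest in 28 (21.0% of all genes) and knockout replicate 3 in 4, Apoe, Axl, Ms4a7 and Ms4a6c (11.1%, a share near that of the members). Spi1 and Csf2rb had theirs in wild type replicate 3 (19.8% of all genes). What the replicate number stands for is not stated by the labels, and its part in the marker levels was not tested.

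Per kilobase of exon, from GENCODE M21 gene models, the markers could be compared with each other within a library. In knockout replicate 2 the order was led by Lyz2 at 1118 CPM per kb, Gpnmb at 256, Lgals3 at 179 and Tyrobp at 97.4. In knockout replicate 1 it was led by Spi1 at 14.4 CPM per kb, Csf2rb at 12.4, Apoe at 9.23 and Lyz2 at 8.11. Spi1 was at 15.8 CPM per kb in knockout replicate 2, so the level of this gene hardly moved while those around it did. In knockout replicate 2 Csf1r was at 12.5 CPM per kb, Mertk at 4.77 and Axl at 0.464.

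Lists for other cell types were summed in the same way. Neutrophil and granule markers came to 1.71 to 2.70 CPM in wild type and to 1.497, 12.4 and 7.28 CPM in knockout, of which Mmp8, a collagenase, gave 0.299, 10.9 and 6.07 CPM. Of these 16 genes 15 had a mean under 1 CPM, with the granule enzymes Elane and Ctsg and the calgranulin S100a9 at or near 0. S100a8, the partner of S100a9, was at or below 0.0752 CPM in 4 libraries and at 0.627 and 0.308 CPM in knockout replicates 2 and 3. The list sum was thus highest in the libraries where Lyz2 was, and its part in the Lyz2 level was not tested.

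Of the other lineages, the platelet list was highest in the libraries where Lyz2 was. The T cell list came to 6.79, 17.7 and 16.7 CPM in wild type and 10.3, 34.2 and 12.1 CPM in knockout, with Thy1 at 13.3 CPM and Cd8a at 5.14 CPM in knockout replicate 2. Natural killer cell markers stayed at or below 5.49 CPM, dendritic cell markers lay between 16.7 and 44.6 CPM, and endothelial markers, mostly Pecam1, between 52.9 and 106 CPM. Erythroid, mast cell and fibroblast lists stayed at or below 3.84 CPM in every library. The platelet list reached 51.0 and 28.9 CPM in knockout replicates 2 and 3 through the chemokine gene Pf4 (48.7 and 27.2 CPM), while Ppbp, Gp9 and Gp1bb were at or near 0. The part of these lists in the marker levels was not tested.

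Monocyte markers summed to 560.7 to 700.5 CPM in wild type and 764 to 845 CPM in knockout, nearly all of it Plac8, which B lineage cells also express. Ly6c2, which marks inflammatory monocytes, was at or below 0.832 CPM in each library, and Ccr2 at or below 2.83 CPM. Other genes of that list were highest in knockout replicates 2 and 3. F13a1, a coagulation factor subunit, was at 1.34, 4.16 and 4.19 CPM in wild type and 0.233, 6.55 and 7.09 CPM in knockout, and Fn1, fibronectin, at 1.79, 0.877 and 0.471 CPM and at 0.333, 4.29 and 2.37 CPM. All 5 tested monocyte genes were higher in knockout in numbers 2 and 3, and 2 in number 1 (49.7%, 39.0% and 40.3% of all genes). Their median log2 differences were -0.16, 0.55 and 0.26 in numbers 1, 2 and 3. At least 1 upward was reached by 2 genes in number 2 and 1 in number 3 (4.58% and 2.65% of all genes). B cell markers summed to 2275 to 2945 CPM in wild type and 2269.6, 2705 and 2707 CPM in knockout. Within that list the surrogate light chain gene Igll1 was at 92.2 CPM in knockout replicate 1 against 499 in replicate 2.

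**Figure D4:**
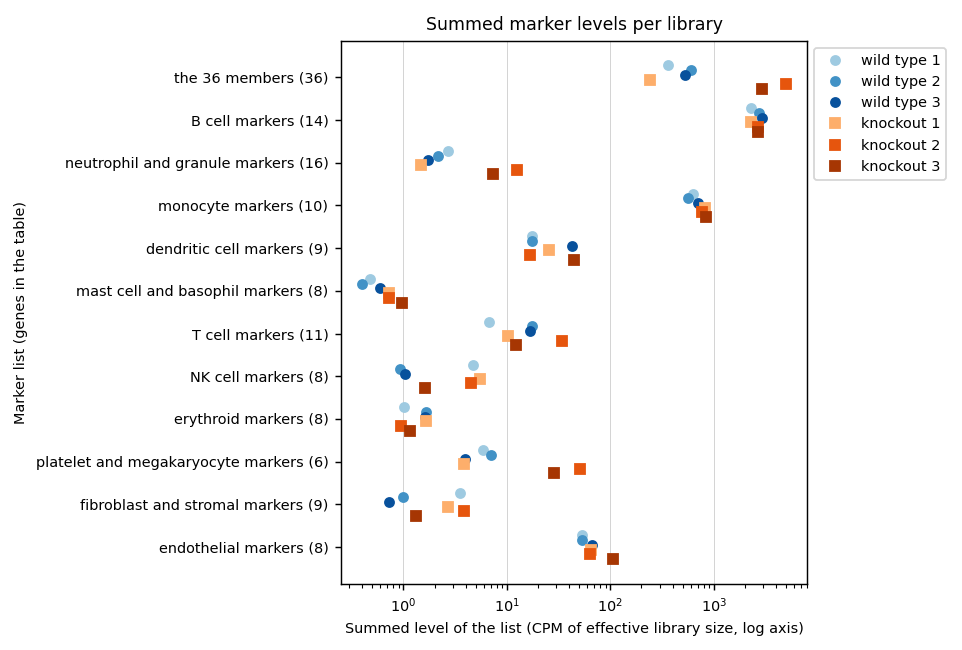
Summed level of the 36 markers and of 11 lists for cell types (vertical axis, with the number of genes in the table), in CPM of effective library size on a log axis, 1 symbol per library, circles for wild type and squares for knockout. The 36 markers, the neutrophil list and the platelet list have knockout replicates 2 and 3 to the right of the other libraries, while the B cell list keeps all 6 libraries between 2269.6 and 2945 CPM.

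Further genes of phagocytes were read from 10 lists, in none of which a gene passed limma in either design. In the engulfment and complement list, 10 of 10 tested genes were higher in knockout in numbers 2 and 3 and 0 in number 1 (49.7%, 39.0% and 40.3% of all genes), with median log2 differences of -0.31, 2.19 and 1.64 in numbers 1, 2 and 3. Mfge8, a bridge to dying cells, was at 40.9, 58.0 and 31.0 CPM in wild type and 27.7, 277 and 111 CPM in knockout. C3ar1, the C3a receptor, was at 3.61, 5.92 and 2.95 CPM and at 1.16, 48.1 and 23.2 CPM.

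Of the other transcription factors of macrophages, 5 of 10 tested genes differed by at least 1 upward in number 2 and 3 in number 3 (4.58% and 2.65% of all genes). Irf8, which B cells share, was at 60.3, 171 and 169 CPM in wild type and 49.6, 108 and 100.3 CPM in knockout, and so lower in each pair (limma adjusted p = 0.9998, paired 0.0907). Maf, a factor of resident macrophages, was at 0.748, 2.63 and 1.01 CPM in wild type and at 0.699, 14.7 and 6.14 CPM in knockout. Cyba, the oxidase chain that pairs with Cybb, lay between 77.2 and 110.5 CPM in all libraries.

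In the lipid handling list 11 of 12 tested genes were higher in knockout in number 2, 9 in number 3 and 1 in number 1 (49.7%, 39.0% and 40.3% of all genes). Spp1, osteopontin, was at 29.9, 59.9 and 21.6 CPM in wild type and 6.12, 462 and 229 CPM in knockout. Fabp5, a fatty acid carrier, had its highest level in wild type replicate 1 (1684 CPM) and lay between 235 and 451 CPM in the other 5 libraries. Sirpa, the CD47 receptor of myeloid cells, was at 10.9, 11.6 and 7.66 CPM and at 4.69, 116 and 55.1 CPM, whereas the kinases Lyn and Syk of B and myeloid cells showed log2 differences of -0.03 and 0.03.

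Of 16 growth factor and cytokine genes 5 were tested. Csf1, the ligand of Csf1r, was at 31.0, 18.2 and 13.2 CPM in wild type and 49.6, 35.5 and 18.8 CPM in knockout, higher in each pair (log2 difference 0.69, limma adjusted p = 0.9998, paired 0.059). Ccl6, a chemokine of macrophages, was at 8.04, 15.8 and 4.43 CPM and at 1.83, 143 and 41.6 CPM. Csf2, Csf3, Il34 and Il6 were at or near 0 in all libraries.

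All 10 endolysosomal protease genes were higher in knockout in number 2, 3 in number 1 and 8 in number 3 (49.7%, 40.3% and 39.0% of all genes). Ctsd, cathepsin D, was at 144, 252 and 157 CPM in wild type and 114, 2895 and 1204 CPM in knockout, and Ctsb, cathepsin B, at 105, 145 and 139 CPM and at 83.4, 999.9 and 473.0 CPM. MHC class II genes did not follow: H2-Aa was at 12.0, 4.81 and 42.4 CPM in wild type and at 17.3, 6.72 and 45.5 CPM in knockout, with like values for equal numbers.

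The genes outside all lists whose profile was most like the mean standardised profile of the members over the 6 libraries were picked by Pearson's r, given as a description. The r of the 12 picked lay between 0.993 and 0.999. Among them were Ms4a6d, a relative of Ms4a6c, the myosin Myo1f, the lysosomal enzyme Pld3, Atp5s, the sterol acyltransferase Soat1, Nrp2, Gng12, Tdrd7, the sorting receptor Sort1, Lrp12 and Agap1. Myo1f was at 2.70, 4.21 and 3.81 CPM in wild type and 1.26, 60.6 and 28.6 CPM in knockout. Atp5s reached a high r with a small span, from 3.86 to 4.84 CPM. Of all tested genes 2.3% had r of at least 0.95. The members make up the profile themselves, so their own r is no comparison with that share. Each r rests on 6 libraries of which 2 stand far from the rest.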

How the data were processed

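The authors deposited 1 table with a value per gene and library. Per the submitters' processing notes, the tools were STAR 2.4.2a, HTSeq, CASAVA and edgeR, in no stated order, and the build was mm9. The sources used here name neither the annotation nor the strand setting. The deposited values are called FPKM, but are a signal in which every value of a library is a whole multiple of 1 step (100% of values, tolerance 0.01 reads), that is, reads divided by an effective library size and not by gene length. Reads were recovered from these steps for edgeR 4.0.16 and DESeq2 1.42.0. The main test was limma 3.58.1 (R 4.3.3) with its trend option, two-sided, on log2(value + 1) of the 10533 genes with a mean of at least 1. Adjusted p-values (Benjamini-Hochberg, all of those genes) passed under 0.05. This test was chosen while the values were taken for FPKM, and was kept as the main one. The model fits were run on simulated counts with no effect of the replicate number and with changes shared by all knockout libraries. The libraries here differ from that setting, so the run does not show how the fits behave on them.

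Libraries of equal number deviated together from their group means (correlations 0.73, 0.73 and 0.84 across genes), so the numbers were taken to pair them. No library pair agreed within counting noise (lowest chi-square per degree of freedom 49.5).

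The members and lists were chosen with earlier results of these data known. By the naming rule all 36 members, the 3 highest genes by mean of each other list and the 12 genes of most similar profile could be named, and a selection of them, made with their values seen, is printed. Some genes that the rule picks are not reported here. Other genes named from the lists were chosen after their values were seen. Exon lengths and 50-base words come from GENCODE M21 (GRCm38), so no coordinates of the counted genes are given. Intervals cover counting error only.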

Additional observations from a re-analysis of the deposited data

How the results depend on the processing

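Leaving out any 1 library kept the median log2 difference of the 34 tested members above 0, between 0.67 (without knockout replicate 2) and 2.77 (without knockout replicate 1), and kept their count of calls by limma at 0. Over all genes the count of calls without 1 library was 0 in each case. It was 1 with all libraries, 92 with the replicate number as a block, 110 with DESeq2 and 0 with edgeR, 738 and 39 with the block, and 0 with a pseudocount of 0.1, without the filter on low values and without knockout replicates 2 and 3. With the block and without number 1, 2 or 3 it was 840, 0 and 0. The block moved no member's call in limma. DESeq2 called 2 members, 8 with the block, and limma with the block called 31 without number 1. Each of these counts holds members that passed the filter on low values through the knockout libraries. The median of the members was between 1.84 and 2.51 with edgeR and DESeq2, with or without the block, and -0.76 without knockout replicates 2 and 3 together. In that last fit 32 members turned direction (a single knockout library is left there, and the cause was not tested), with log2 differences of Lyz2 -2.40, Csf1r -1.60, Cd68 -0.77, Adgre1 -1.32, Itgam -0.89, Itgax -0.24, Fcgr1 -0.12, Fcgr3 -0.0073, Fcer1g -0.70, Tyrobp -0.065, Cd14 -0.48, C1qa -1.35, C1qb -1.66, C1qc -1.57, Mrc1 -1.36, Mpeg1 -1.48, Lgals3 -1.48, Cebpa -0.11, Csf2ra -0.080, Mertk -0.29, Axl -0.0075, Apoe -0.49, Lpl -0.91, Gpnmb -1.82, Trem2 -0.98, Msr1 -0.038, Clec7a -1.19, Clec4n -0.75, Ms4a7 -0.42, Ms4a6c -0.19, Cybb -1.12, Plek -0.81. Spi1 ranged from -0.0061 (without wild type replicate 2) to 0.29 (without wild type replicate 3), and turned to -0.016 with the block and without number 2. Csf2rb turned to 0.011 with equal totals, to 0.095 to 0.13 without knockout replicate 1 or wild type replicate 3, and to 0.067 and 0.058 with the block and without number 1 or 3. No other member turned under any setting run. Low read counts limit Lyz1 and Csf3r, which had at most 20 and 27 reads in a library. They also widen the intervals of many ratios in number 1, where C1qa had 14 reads in wild type and 6 in knockout. Knockout replicate 1 also had the fewest reads in total (28852951).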
